A study of Mus musculus with 24 samples.

Results

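The comparison was between T11 cells given unfused Omomyc and T11 cells given PBS, both for 3 h. Its members are the 6 samples titled Omomyc or PBS at 3 h, out of 24 in the series. Of 23235 gene records in the deposited table, the 10262 whose average over all 8 groups reached 1 FPKM were kept. FPKM counts sequenced fragments per length of transcript, scaled to the size of the library. The lowest mean kept was 1.00061 FPKM, of Unc13c, and the highest left out was 0.998 FPKM, of Tcf7l1.

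T11 is a murine breast cancer line with claudin-low, mesenchymal features, and per the labels all its samples here express a luciferase gene. All cells grew for 3 days in RPMI with 1% fetal bovine serum before they received PBS, Omomyc, the peptide FPP-1746, or the fusion of FPP-1746 with Omomyc. Each peptide was used at 5 µM, for 3 h or for 6 h, and each of the 8 groups has 3 samples titled as biological replicates. The 3 samples titled as the fusion at 6 h carry a treatment label of 3 h; the title, which the column name shares, was followed. The PBS groups received no peptide. PBS at 3 h is the reference for values at 3 h and PBS at 6 h for values at 6 h, unless another is named. Omomyc was added here without the carrier, so the comparison measures the cells' RNA when the domain stands in the medium by itself. How much of it entered the cells is not given in the labels.

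MYC is a transcription factor that binds DNA as a pair with MAX, through a basic helix-loop-helix leucine zipper, at E-box sites whose usual core is CACGTG. It raises genes of ribosome production, nucleotide synthesis and cell growth, and lowers some genes of growth arrest and adhesion. The MXD proteins and MNT also pair with MAX and oppose MYC at the same sites. Omomyc is the basic helix-loop-helix leucine zipper of MYC with altered residues in the zipper, so that it can pair with MYC, with MAX and with itself, and its pairs occupy E-boxes without activating transcription.

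The deposited values are 1 average per group. They carry no replicate error, so nothing below was tested and each difference lacks a replicate check. Column sums were between 445657 and 594951 FPKM, and the PBS and Omomyc columns at 3 h summed to 486989 and 492091 FPKM. As a rough figure, 1 FPKM of a 2000-base transcript was taken as about 84 fragments in both columns. It is the median of 34 low values in PBS and 29 in Omomyc inside a range set beforehand. That range limits how far the 2 columns could differ. All 8 mesenchymal markers were present in the PBS column, between 4.11 and 3693 FPKM. Of 9 epithelial markers the highest, Esr1, read 0.269 and 0.341 FPKM in PBS and Omomyc, and Epcam, Cldn3, Krt18 and Krt19 were listed at 0 in both. None of 6 endothelial markers averaged 1 FPKM, while 2 of 10 macrophage and leukocyte markers and 1 of 5 adipocyte markers in the table did. Cd68 stood at 1.05 FPKM in PBS and 1.76 FPKM with Omomyc, Cd14 at 10.1 and 11.3 FPKM, and Fabp4 at 1.86 and 1.60 FPKM. In cell averages of this kind, fewer cells with a transcript and less of it per cell cannot be told apart, and a change of total RNA per cell would not show in FPKM.

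Unfused Omomyc left the averaged transcriptome close to that of PBS at 3 h. After 140 records of small RNAs were set aside, 10122 genes remained. None of them was at least 2-fold higher with Omomyc (0%) and 1 was at least 2-fold lower (0.00988%), as the ratio of FPKM + 1. That gene was Snhg9, a host gene of a small nucleolar RNA, listed at 1.11 FPKM in PBS and at 0 with Omomyc. It is a short, low gene in a locus shared with a neighbour, and it was at 3.87 FPKM with FPP-1746 and at 0 in 3 of the 4 groups at 6 h. Genes were therefore also counted at a smaller size, when FPKM + 1 was at least 25% above or at least 20% below PBS. Both are a step of 0.32 on the log2 scale and are called the size limit below. By this rule 111 genes were higher (1.1%) and 83 were lower (0.82%). The median log2 ratio over all genes was 0.01 and 95% of genes lay within 1.17-fold of PBS.

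**Figure D1:**
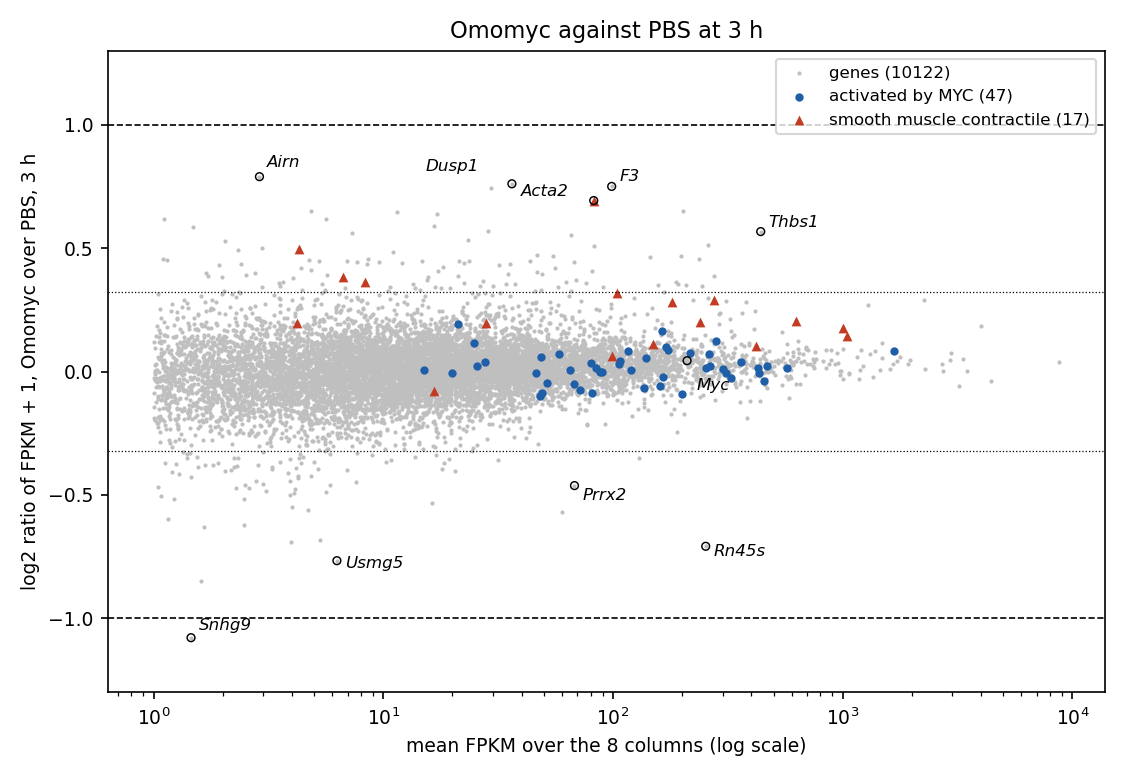
Log2 ratio of FPKM + 1, Omomyc over PBS at 3 h, against the mean FPKM over the 8 columns on a log axis. Each grey point is a gene, blue points are genes activated by MYC and red triangles are smooth muscle contractile genes. Dotted lines mark the size limit of 25% above or 20% below PBS, and dashed lines mark 2-fold. Snhg9 is the single gene beyond 2-fold, and the genes activated by MYC all lie between the dotted lines.

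The direction of the larger differences depended on the level of the gene. Among the 6217 genes that averaged at least 10 FPKM, 68 were at least 25% higher (1.09%) and 14 at least 20% lower (0.225%). That average runs over all 8 columns, so some genes reached it only through the fusion columns. In PBS and with the fusion at 3 h, Zfp36 stood at 7.96 and 98.1 FPKM and Lif at 6.38 and 50.5 FPKM, both among the higher. Hey1, among the lower, stood at 7.01 and 21.2 FPKM. Below 10 FPKM, lower genes outnumbered higher ones between 1 and 5 FPKM. From 1 to 2 FPKM 21 genes were lower and 8 higher, and from 2 to 5 FPKM 37 were lower and 20 higher. The spread of the log2 ratio over genes was wider among low genes, with an SD of 0.15 between 1 and 2 FPKM and 0.088 above 100 FPKM. The highest ratio of all was that of Airn, a long non-coding RNA in a shared locus, at 1.80 FPKM in PBS and 3.84 FPKM with Omomyc. Among low genes on the other side, Cks2, a cyclin-dependent kinase subunit, stood at 6.38 and 3.58 FPKM.

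Other pairs of columns give the scale of these counts, over the same 6217 genes. FPP-1746, the peptide given by itself, had 71 genes (1.14%) at least 25% higher than PBS and 10 (0.161%) at least 20% lower at 3 h. Omomyc set directly against FPP-1746 at 3 h had 6 (0.0965%) higher and 9 (0.145%) lower, the fewest of the pairs counted, and over all 10122 genes 26 higher (0.257%) and 43 lower (0.425%). The fusion of both parts had 1761 (28.3%) higher and 1656 (26.6%) lower. These comparisons with PBS at 3 h use the same PBS column. More genes also differed between the 2 PBS columns than between Omomyc and PBS: PBS at 6 h against PBS at 3 h had 281 (4.52%) higher and 509 (8.19%) lower.

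**Figure D2:**
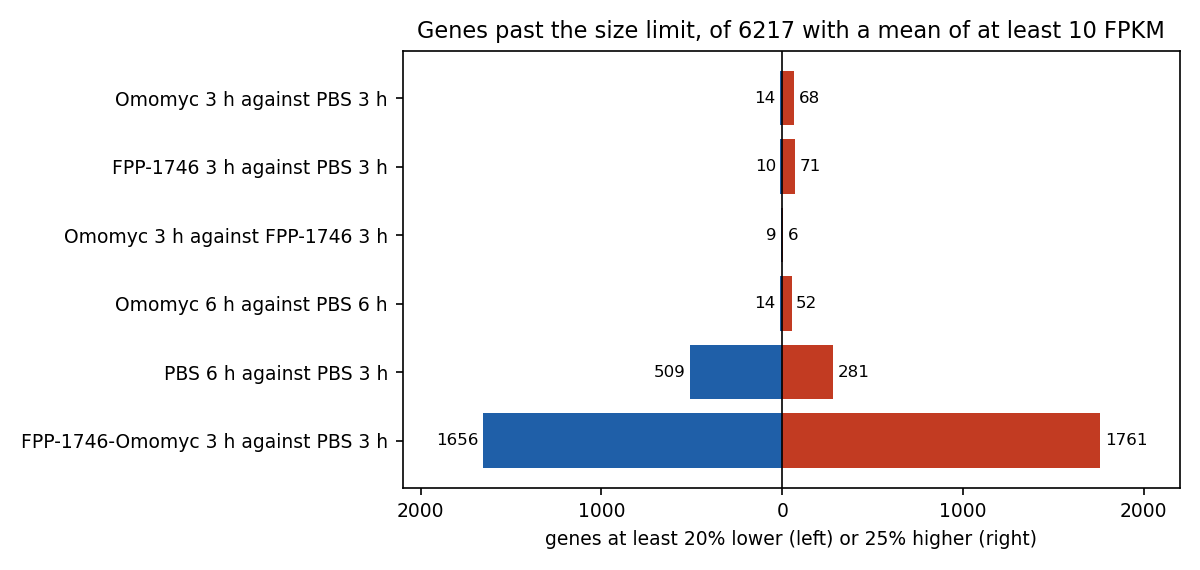
Number of genes, of 6217 averaging at least 10 FPKM, that were at least 20% lower (blue, left) or 25% higher (red, right) in each pair of averaged columns. Omomyc against PBS at 3 h, with 14 lower and 68 higher, is near FPP-1746 against PBS, with 10 and 71, and far below the fusion, with 1656 and 1761.

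Genes of the MYC network were at nearly the same level with and without Omomyc. Myc (mm9 chr15:61816896-61821916) stood at 161 FPKM in PBS, 166 FPKM with Omomyc and 170 FPKM with FPP-1746. Max (chr12:78038256-78063235), its obligate partner, stood at 57.6, 57.5 and 58.6 FPKM in the same order. For comparison, the fusion column held 422 FPKM of Myc and 70.4 FPKM of Max. Among the partners that oppose MYC, Mnt stood at 7.41 and 7.52 FPKM, Mxi1 at 7.83 and 8.35 FPKM, and Mxd4 at 9.78 and 9.80 FPKM. Mxd1 was low, with 0.729 and 0.812 FPKM. The members farthest from PBS were Mxd3, a MAX partner of dividing cells in a shared locus, with 11.2 FPKM in PBS and 8.94 FPKM with Omomyc, and Mycl1, which encodes L-MYC, with 4.38 and 5.59 FPKM. Of 11 network genes measured, none passed the size limit, beside 1.1% of all genes higher and 0.82% lower. Their median log2 ratio was 0.03.

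The genes that MYC is known to activate did not stand lower with Omomyc. Of 48 listed, 47 passed the level filter. None of these was past the size limit in either direction, beside 1.1% of all genes higher and 0.82% lower. Their median log2 ratio was 0.01, as was that of all genes. The lowest ratio was -0.10, of Odc1, the first enzyme of polyamine synthesis, at 50.1 FPKM in PBS and 46.8 FPKM with Omomyc. The highest was 0.19, of Fbl, the methyltransferase of box C/D small nucleolar particles, at 20.1 and 23.1 FPKM. The nucleolar gene Ncl read 381 FPKM in PBS and 391 FPKM with Omomyc. Npm1, another nucleolar gene, read 469 and 477 FPKM. These 2 abundant nucleolar transcripts, like most of the list, were within a few percent of PBS.

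The E-box core was read in promoters from RefSeq (GRCm38.p6), each window covering 250 bases before to 50 bases after the start of a gene, and 8136 of the 10122 genes had a window. To show the kind of site that pairs of MYC or Omomyc are known to occupy, 6 activated genes with a CACGTG are given, each as 30 bases, 5′ to 3′ on the gene's strand, with the E-box in capitals.
Ldha (chr7:46845647-46845676, plus strand): ggtgtcgcagcaCACGTGgagccactcttg
Cdk4 (chr10:127063351-127063380, plus strand): atggcagccagtCACGTGccacacagcgta
Nme1 (chr11:93968273-93968302, minus strand): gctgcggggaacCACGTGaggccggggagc
Mybbp1a (chr11:72441347-72441376, plus strand): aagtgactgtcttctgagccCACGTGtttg
Hspd1 (chr1:55088306-55088335, minus strand): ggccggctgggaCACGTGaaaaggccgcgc
Apex1 (chr14:50924913-50924942, plus strand): gcgctccagaacCACGTGggggcggagccc
The sites began between -172 (Cdk4) and 40 (Mybbp1a) relative to the start site.

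All 6 of these genes stood close to PBS. Ldha, the lactate dehydrogenase of glycolysis, stood at 1639 FPKM in PBS and 1736 FPKM with Omomyc. Cdk4, a kinase of the G1 phase, stood at 576 and 581 FPKM. Nme1, a nucleoside diphosphate kinase, stood at 315 and 309 FPKM. The 3 ratios are within the size limit and not all of 1 sign. Mybbp1a, a nucleolar MYB-binding protein gene, stood at 254 and 267 FPKM, and Hspd1, a mitochondrial chaperonin, at 221 and 233 FPKM. Apex1, a base-excision repair endonuclease, was at 156 and 150 FPKM.

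Across the table, genes with and without the E-box lay at the same median. CACGTG, which reads the same on both strands, lay in 1018 of the 8136 promoters (12.5%), and in 7.15% of all 32851 windows. The median log2 ratio was 0.01 both for genes with the site and for the 7118 without it. With the site, 13 genes (1.28%) were at least 25% higher and 5 (0.491%) lower. Without it, 68 (0.955%) were higher and 57 (0.801%) lower. The fusion at 3 h, over the same PBS column, also gave close medians, 0.0118 with the site and -0.000813 without it. Yet with the fusion 28.3% of the 6217 genes averaging at least 10 FPKM were higher past the size limit and 26.6% lower. Equal medians in this split therefore do not tell a column with few changed genes from one with many. A match shows only the letters in this window and not an occupied site.

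Genes that MYC is known to repress were mixed. Of 16 measured, 2 were at least 25% higher (1.1% of all genes), none lower, and the median log2 ratio was 0.07. That median lay below 0 without the level filter (-0.0141), with the mean of both PBS columns as reference (-0.0127) and against FPP-1746 (-0.0111). Thbs1 (chr2:117937658-117952869), which encodes the matrix protein thrombospondin 1, stood at 551 FPKM in PBS and 816 FPKM with Omomyc, 1.48 times as much, and at 892 FPKM with FPP-1746. Ndrg1, a stress- and differentiation-associated gene, stood at 29.8 FPKM in PBS, 39.8 FPKM with Omomyc and 34.0 FPKM with FPP-1746. The cell cycle inhibitors did not pass the size limit: Cdkn1a read 2.67 FPKM in PBS and 3.12 FPKM with Omomyc, Cdkn1b 7.92 and 7.38 FPKM, and Cdkn2b 31.5 and 28.8 FPKM.

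The lists of growth programmes downstream of MYC had no member past the size limit, beside 1.1% of all genes higher and 0.82% lower. This held for 39 genes of RNA polymerase I and ribosome biogenesis (median log2 ratio 0.01), 38 translation factors (0.04), 30 genes of nucleotide and polyamine synthesis (0.02), 39 of DNA replication and G1/S (0.01) and 31 mitotic genes (0.00). It also held for the 31 genes of mitochondrial respiration, the 18 of apoptosis, the 17 heat-shock genes, the 19 of the unfolded protein response and the 21 targets of NRF2. Nor did any of 32 autophagy and lysosome, 10 interferon-response, 9 BET-response, 5 metal-response or 4 arrestin-domain genes pass. In the p53 list 1 of 17 did: Plk2, a kinase gene induced by DNA damage and by serum, stood at 179 FPKM in PBS and 230 FPKM with Omomyc. At those shares of all genes, lists of this size are too short for such counts to be read as a difference. They cover list members only, and Cks2, outside these lists, was past the limit with a log2 ratio of -0.69. The fusion column, against the same PBS column, gave a median of -0.67 for the mitotic genes and -0.28 for the ribosome biogenesis genes.

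**Figure D3:**
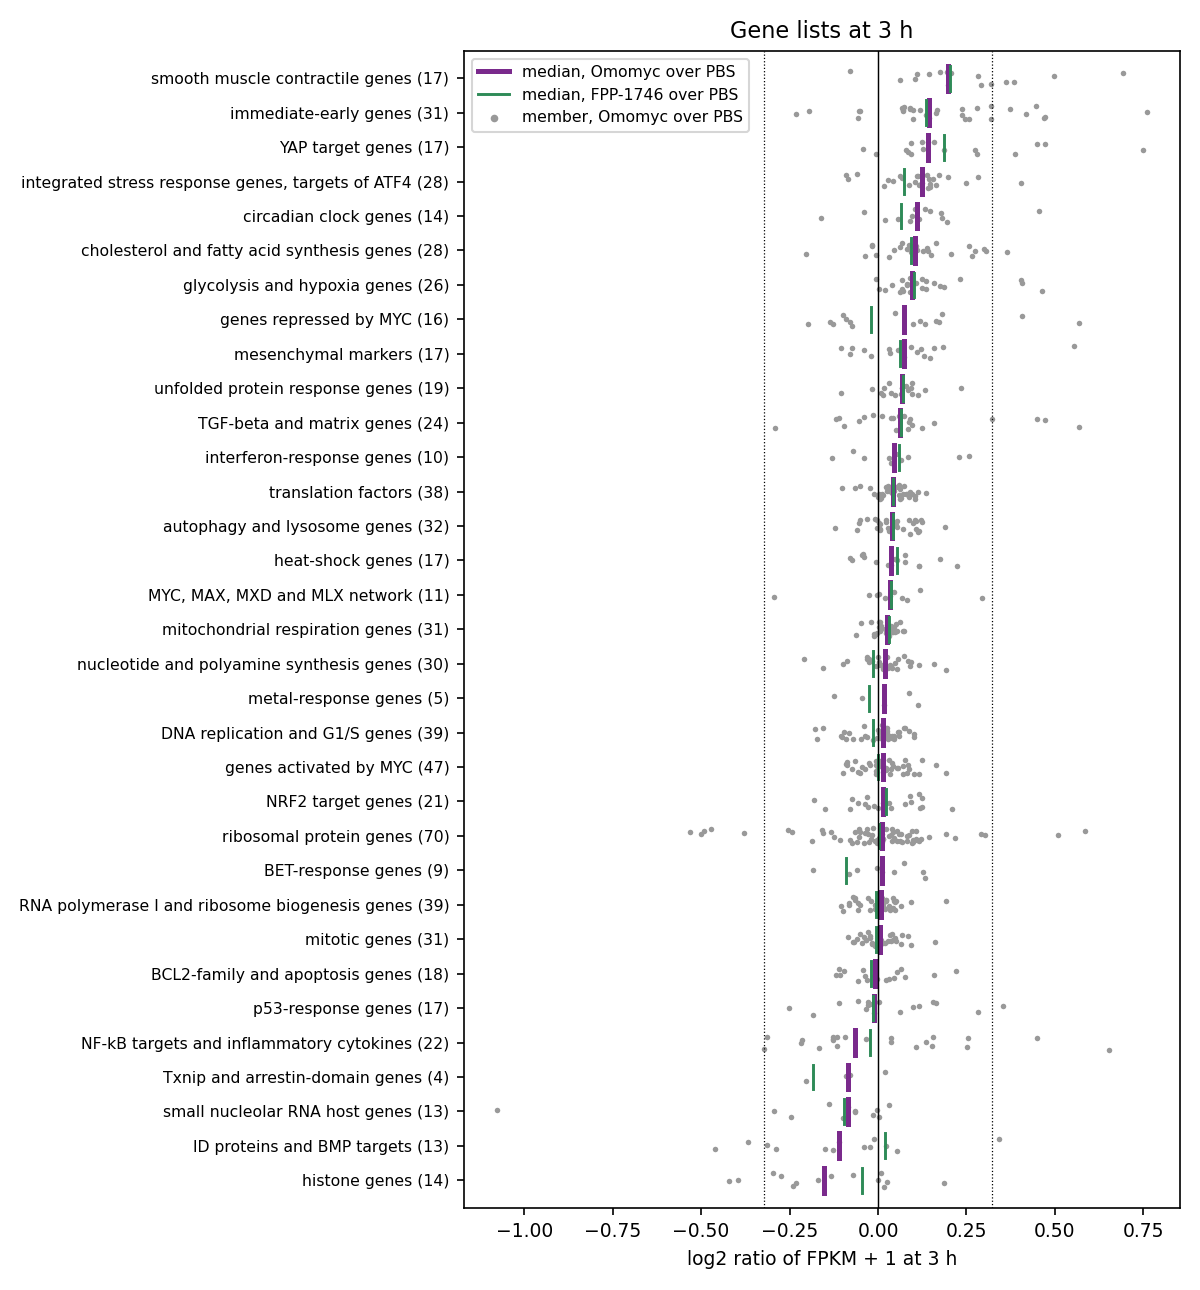
Log2 ratio of FPKM + 1 at 3 h for the members of each gene list (grey points, Omomyc over PBS; number of members in brackets), with the list's median for Omomyc over PBS (purple bar) and for FPP-1746 over PBS (green bar), which share the PBS column. Dotted lines mark the size limit. Medians of the lists drawn run from 0.20 for smooth muscle contractile genes to -0.15 for histone genes, and genes activated by MYC sit at 0.01. The lists of macrophage and leukocyte, adipocyte, epithelial and endothelial markers are not drawn.

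Leaving aside the 2 measured macrophage and leukocyte markers (median 0.29), the highest list was that of smooth muscle contractile genes. These encode actin, myosin light chains and their regulators, and fibroblast-like cells express them as part of the actin cytoskeleton. Of 17 measured, 16 had a log2 ratio above 0, beside 55.2% of all genes. In this list 4 were at least 25% higher, none was lower, and the median was 0.20. Acta2 (chr19:34315581-34329826), the smooth muscle alpha actin, stood at 62.2 FPKM in PBS and 101 FPKM with Omomyc, 1.63 times as much. The actin-binding gene Tagln, in a locus shared with a neighbour, stood at 3.12 and 4.82 FPKM, and the myosin light chain gene Myl9 at 6.29 and 8.52 FPKM. The fourth, the gamma actin Actg2, stood at 6.85 and 9.09 FPKM. Srf, the serum response factor that drives many of these genes, read 155 FPKM in PBS and 194 FPKM with Omomyc, just under the size limit. The tropomyosins were nearer to PBS, with Tpm1 at 1096 and 1210 FPKM and Tpm2 at 98.1 and 103 FPKM. The 4 of 17 stand beside 1.1% of all genes at least 25% higher.

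FPP-1746 gave the same list a median log2 ratio of 0.20 over the shared PBS column. In the FPP-1746 column Acta2 stood at 101 FPKM, Tagln at 5.48 FPKM, Myl9 at 8.78 FPKM and Srf at 193 FPKM. Set directly against FPP-1746, Omomyc left the 17 genes with a median of -0.00131 and none past the size limit. The fusion lay on the other side of PBS, with 21.7 FPKM of Acta2 and a list median of -0.60.

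Further actin and focal adhesion genes were among the 68 higher genes that averaged at least 10 FPKM. These were picked by role after their values were seen. Vcl, which encodes vinculin, the link from integrins to actin, stood at 223 FPKM in PBS and 287 FPKM with Omomyc. Csrp1, a LIM-domain protein of actin fibres, stood at 231 and 293 FPKM. Itga5 (chr15:103174718-103197179), the fibronectin receptor subunit, stood at 56.4 and 83.3 FPKM, 1.48 times as much. All 3 were also above PBS with FPP-1746, at 302, 306 and 88.5 FPKM. Lmcd1 stood at 12.8 and 16.9 FPKM, and Bcar1, an adhesion scaffold, at 76.6 and 98.4 FPKM. Fhl2 was at 33.4 and 43.4 FPKM, and Pdlim5 at 94.6 and 129 FPKM.

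Several of the higher genes held a CArG box, the site of serum response factor, in their promoter window. The motif was searched on both strands after the values had been seen. It lay in 133 of the 8136 tested promoters (1.63%), and in 1.63% of all windows. The 6 higher genes below show it in capitals, in 30 bases each of RefSeq sequence (GRCm38.p6), 5′ to 3′ on the gene's strand.
Filip1l (chr16:57549170-57549199, plus strand): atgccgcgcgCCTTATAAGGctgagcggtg
Asb5 (chr8:54550110-54550139, plus strand): taattaaataCCAAAAAAGGaaatcatcgg
Lima1 (chr15:99820177-99820206, minus strand): ctcactttgtCCTTATAAGGctatcctgtt
Zfp36 (chr7:28379267-28379296, minus strand): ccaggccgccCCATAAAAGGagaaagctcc
D4Bwg0951e (chr4:80910498-80910527, plus strand): aacttagtaaCCTAATATGGgtatgctcag
Fermt2 (chr14:45530250-45530279, minus strand): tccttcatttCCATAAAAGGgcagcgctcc
Filip1l and Lima1 hold the same 10 letters, at -62 and -47 relative to their start sites.

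Filip1l, in a shared locus, stood at 33.2 FPKM in PBS and 49.7 FPKM with Omomyc, and Asb5, an ankyrin-repeat gene, at 232 and 322 FPKM. Lima1, an actin-bundling protein gene, stood at 46.7 and 64.0 FPKM. Fermt2, the integrin activator kindlin-2, stood at 54.5 and 72.0 FPKM, and D4Bwg0951e at 32.0 and 42.4 FPKM. All 6 genes shown were also above PBS with FPP-1746. In that column Filip1l stood at 52.1 FPKM, Asb5 at 352 FPKM, Lima1 at 69.6 FPKM and Fermt2 at 71.7 FPKM. Zfp36 stood at 9.90 FPKM there and D4Bwg0951e at 39.9 FPKM. Among the 50 higher genes averaging 10 FPKM or more that had a promoter window, 11 held the box (22%), against 89 of 5019 such genes in all (1.77%), and 0 of 9 lower genes held it. Zfp36, among the 11, averaged 10 FPKM only through the fusion columns. Read the other way, of the 133 genes with the box 14 (10.5%) were at least 25% higher and 0 lower, with a median log2 ratio of 0.05. Of the 8003 genes without it, 67 (0.837%) were higher and 62 (0.775%) lower, with a median of 0.01. The TEAD core, GGAATG or CATTCC, also chosen after the values were seen, lay in 18% of the 50 higher genes and in 13.2% of the 5019, in 2 of 9 lower genes, and in 14.7% of all windows. These are descriptions of letters near the start site and were not tested.

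Genes downstream of the coactivator YAP, which pairs with TEAD factors, had a median log2 ratio of 0.14, with 4 of 17 at least 25% higher (1.1% of all genes) and none lower. FPP-1746 over the same PBS column gave 0.19, with 5 higher. F3 (chr3:121426455-121437970), the tissue factor that starts coagulation, stood at 100 FPKM in PBS, 169 FPKM with Omomyc and 195 FPKM with FPP-1746. Ctgf (chr10:24315248-24318488), a matricellular protein gene, stood at 58.5, 81.6 and 109 FPKM in the same columns. Both had more RNA with FPP-1746 than with Omomyc. Ankrd1 stood at 337, 441 and 464 FPKM, and Cyr61, another matricellular gene, at 404, 491 and 544 FPKM. The factors themselves moved little: Yap1 read 36.2 FPKM in PBS and 38.4 FPKM with Omomyc, and Tead1 27.4 and 29.9 FPKM.

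In the list of TGF-beta and matrix genes 4 of 24 were at least 25% higher (1.1% of all genes), none lower, and the median log2 ratio was 0.06. Thbs1, Ctgf and Tgfb2 were among them, and the YAP list also holds Ctgf and Tgfb2. Tgfb2, a TGF-beta ligand, stood at 6.44 FPKM in PBS and 9.14 FPKM with Omomyc. The structural genes stayed within the size limit: Col1a2 read 749 and 797 FPKM, Fn1 152 and 170 FPKM, and Sparc 890 and 945 FPKM. Outside the list, Plau, the plasminogen activator urokinase, stood at 5.45 and 8.90 FPKM, and its receptor Plaur at 247 and 352 FPKM.

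Immediate-early genes, which answer serum, stress and growth factors within minutes, had a median log2 ratio of 0.15, and 6 of 31 were at least 25% higher (1.1% of all genes). FPP-1746 over the same PBS column gave 0.13, with 5 higher. Dusp1 (chr17:26642536-26645417), a phosphatase that switches off MAP kinases, stood at 10.8 FPKM in PBS and 19.1 FPKM with Omomyc, 1.76 times as much. Nr4a1, an orphan nuclear receptor gene, stood at 8.11 and 11.6 FPKM, and Fosl2, an AP-1 subunit gene, at 34.5 and 46.5 FPKM. Zfp36, which speeds decay of cytokine mRNAs, stood at 7.96 and 11.2 FPKM, Maff at 26.9 and 35.1 FPKM, and Ctgf as given above. Members known for the briefest induction were low in both columns: Fos read 0.432 FPKM in PBS and 0.606 FPKM with Omomyc, Egr1 2.24 and 2.59 FPKM, and Atf3 1.59 and 1.21 FPKM. The fusion column held 179 FPKM of Dusp1 and 314 FPKM of Nr4a1, far above both.

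Among targets of NF-kB and inflammatory cytokines, 2 of 22 were at least 25% higher (1.1% of all genes) while the median log2 ratio was -0.06. Ptgs2 (chr1:151947254-151955142), the inducible cyclooxygenase, stood at 68.9 FPKM in PBS, 109 FPKM with Omomyc and 127 FPKM with FPP-1746. Lif, a cytokine of the IL-6 family, stood at 6.38 FPKM in PBS and 9.07 FPKM with Omomyc. The chemokines of this list were mixed and none passed the size limit. Cxcl5 read 25.2 FPKM in PBS and 19.9 FPKM with Omomyc, Ccl2 13.2 and 10.4 FPKM, and Cxcl1 had a log2 ratio of 0.11. Ccl17, a low chemokine gene outside the list, was past the limit, at 2.05 FPKM in PBS, 0.972 FPKM with Omomyc and 1.97 FPKM with FPP-1746. Pdgfb, a platelet-derived growth factor chain outside these lists, stood at 21.3 and 33.7 FPKM.

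Metabolic lists had few members past the size limit. Of 26 glycolysis and hypoxia genes, 25 had a ratio above 0, beside 55.2% of all genes, and 3 were at least 25% higher, with a median log2 ratio of 0.10. Slc2a1, the glucose transporter GLUT1, stood at 101 FPKM in PBS, 140 FPKM with Omomyc and 134 FPKM with FPP-1746, and the other 2 were Ndrg1 and Ddit4. Of 28 cholesterol and fatty acid synthesis genes, 23 were above 0 and 1 passed, with a median of 0.11. Sqle, the squalene epoxidase of cholesterol synthesis, read 120 FPKM in PBS and 144 FPKM with Omomyc, within the size limit. In the list of ATF4 targets of the integrated stress response, 25 of 28 were above 0, the median was 0.12 and only Ddit4 passed. Atf4 itself read 280 and 288 FPKM, and its target Asns, asparagine synthetase, 317 and 349 FPKM. A single member past the limit is too few to read against the 1.1% of all genes. FPP-1746 over the same PBS column gave medians of 0.10 for the glycolysis and hypoxia list, 0.09 for the cholesterol and fatty acid list and 0.07 for the ATF4 list.

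Genes of BMP signalling and the ID proteins had a median log2 ratio of -0.11, with 2 of 13 at least 20% lower (0.82% of all genes) and 1 higher. The median was 0.0245 with the mean of both PBS columns as reference, and over PBS at 3 h FPP-1746 gave 0.02. Smad9, a BMP receptor-activated SMAD gene, stood at 3.45 FPKM in PBS, 2.23 FPKM with Omomyc and 3.21 FPKM with FPP-1746. Hey1, a transcriptional repressor induced by Notch and BMP, stood at 7.01, 5.21 and 5.28 FPKM, and Hes1, a related repressor, at 2.55, 3.50 and 3.63 FPKM. Smad6, an inhibitory SMAD, read 7.58 FPKM in PBS and 6.03 FPKM with Omomyc, and Id1, a dominant-negative helix-loop-helix protein, 188 and 169 FPKM. Neither of these passed the size limit. Prrx2 (chr2:30700887-30736767), a homeobox gene of mesenchyme outside the list, stood at 84.9 FPKM in PBS and 61.3 FPKM with Omomyc.

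The histone list had the lowest median of the lists, -0.15, with 2 of its 14 genes at least 20% lower (0.82% of all genes) and none higher. The linker histone gene Hist1h1c stood at 18.8 FPKM in PBS and at 0.748 times that level with Omomyc, and Hist1h4i at 6.01 and 4.24 FPKM. The variants H2afz and H2afy did not share this, at 30.7 and 31.2 FPKM and at 121 and 122 FPKM. With FPP-1746, Hist1h4i stood at 4.70 FPKM and the list's median was -0.05. Hist1h2ba, a low histone gene outside the list, was higher past the size limit, with log2 ratios of 0.434 over PBS and 0.528 over FPP-1746. At 6 h the list's median over PBS was 0.02 with Omomyc and -0.13 with FPP-1746. Hist1h1c and Hist1h4i then had log2 ratios of 0.08 and 0.02 with Omomyc, so their lower level was not seen again.

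Ribosomal protein genes were centred on PBS, and the 70 measured had a median log2 ratio of 0.01, 2 of them at least 25% higher (1.1% of all genes) and 5 at least 20% lower (0.82% of all genes). Rps10 stood at 62.1 FPKM in PBS and 88.9 FPKM with Omomyc, and Rpl36 at 19.0 and 12.8 FPKM. Rps7, Rps27a, Rps12 and Rps16, the other 4 lower genes, were all at 5.66 FPKM or less in PBS. Genes of this family share sequence with many pseudogenes, so single values among them are uncertain. Rn45s, which collects fragments of the 45S ribosomal precursor, stood at 138 FPKM in PBS, 84.0 FPKM with Omomyc and 96.2 FPKM with FPP-1746, the lowest ratio among genes of 10 FPKM or more. Tpt1, an abundant growth-associated gene in a shared locus, stood at 72.4 FPKM in PBS and 48.4 FPKM with Omomyc.

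**Figure D4:**
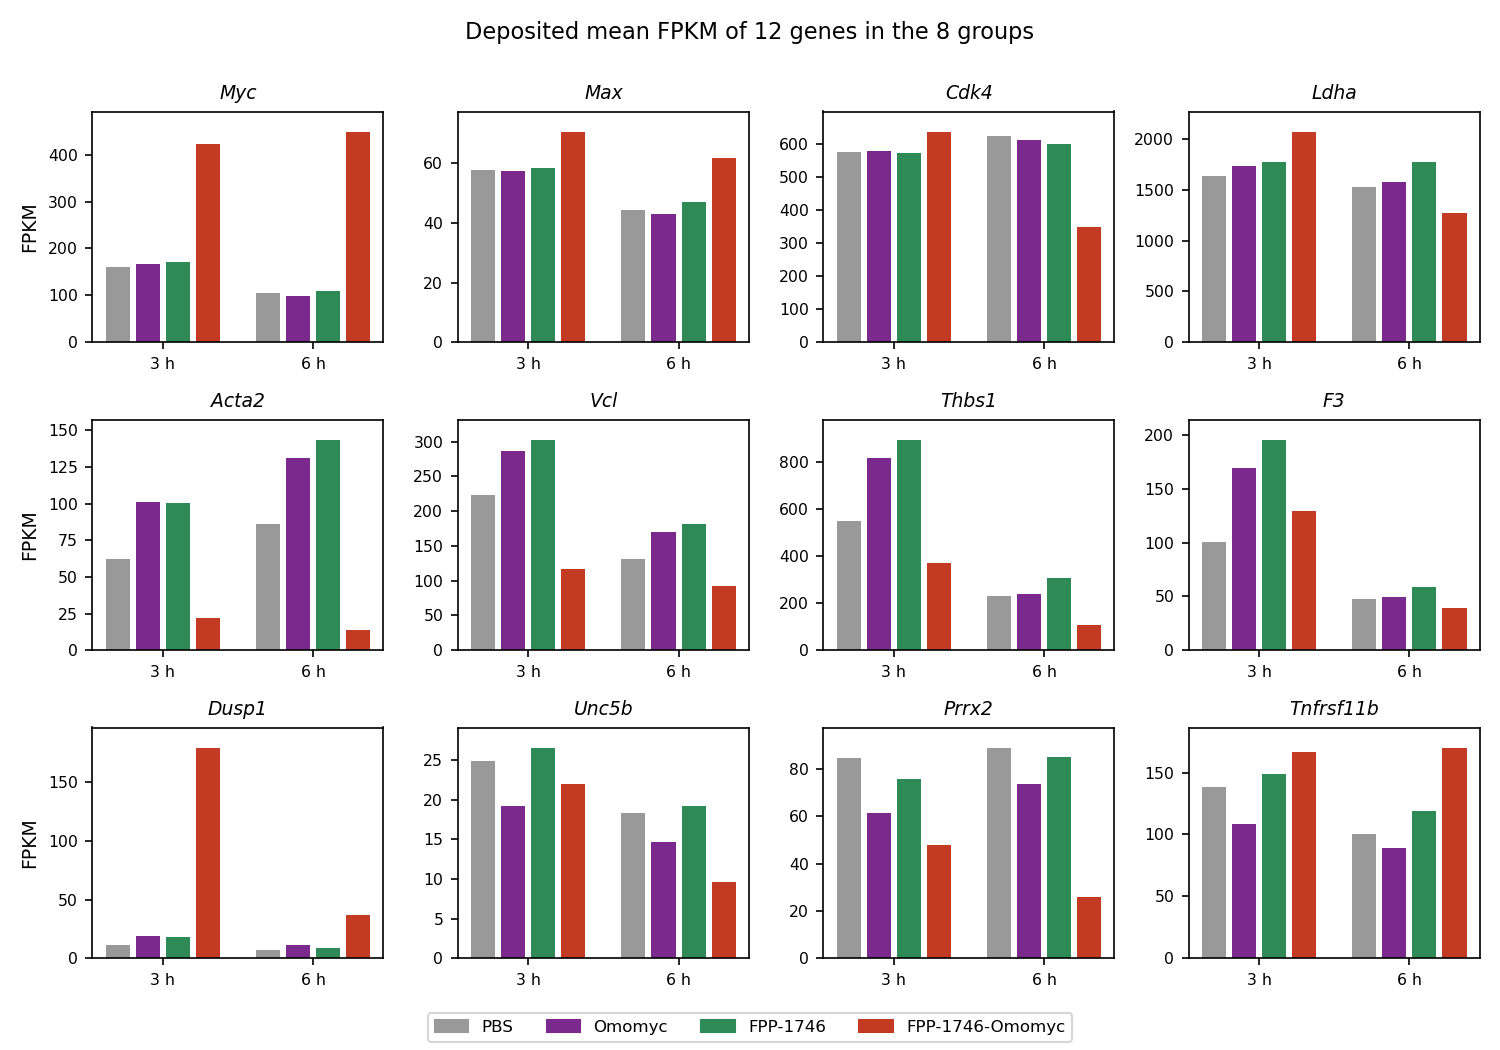
Deposited mean FPKM of 12 genes in the 8 groups, with a linear axis from 0 in each panel; bars are averages without error bars, since the table holds no replicate values. Myc, Max, Cdk4 and Ldha stand level in PBS, Omomyc and FPP-1746 at 3 h; Acta2, Vcl, Thbs1, F3 and Dusp1 are higher in both peptide columns than in PBS; Unc5b, Prrx2 and Tnfrsf11b are lowest of those 3 with Omomyc.

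What set Omomyc apart from both PBS and FPP-1746 at 3 h was small. Past the size limit against both columns, 5 genes were higher and 17 lower, and 1 and 2 of these averaged at least 10 FPKM. The 3 were picked after their values were seen. Ddit4 (chr10:59412423-59414518), an inhibitor of mTORC1 induced by stress, stood at 23.1 FPKM with Omomyc, 17.2 FPKM in PBS and 18.1 FPKM with FPP-1746. Unc5b, a netrin receptor gene, stood at 19.3 FPKM with Omomyc, 24.9 FPKM in PBS and 26.5 FPKM with FPP-1746. Tnfrsf11b, which encodes the decoy receptor osteoprotegerin, stood at 109, 138 and 149 FPKM in the same order. Unc5b and Tnfrsf11b kept this order at 6 h, with 14.7 FPKM of Unc5b with Omomyc against 18.3 and 19.2 FPKM, and 88.7 FPKM of Tnfrsf11b against 101 and 119 FPKM. Of the 6217 genes of at least 10 FPKM, 603 were below both columns at both times and 723 above both. Ddit4 did not keep its order: at 6 h it read 23.4 FPKM with Omomyc, 21.9 FPKM in PBS and 25.6 FPKM with FPP-1746.

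The 6 h groups of Omomyc and PBS share no column with the 3 h groups and give a second reading. At 6 h, 129 genes were at least 25% higher with Omomyc (1.27%) and 57 at least 20% lower (0.563%); from 10 FPKM up these were 52 (0.836%) and 14 (0.225%). Of the 111 genes higher at 3 h, 72 were above PBS at 6 h (64.9%), beside 51.0% of all genes, and 26 were again past the size limit. Of the 83 lower at 3 h, 57 were below PBS at 6 h (68.7%), beside 49.0% of all genes, and 9 were again past the size limit. Pearson's r between the log2 ratios at 3 h and 6 h was 0.22 over the 10122 genes and 0.28 over the 6217 of at least 10 FPKM. It describes genes, which are not replicates, and all 4 columns come from 1 cell line and 1 table.

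The genes past the size limit at both times and at 10 FPKM or more were 13 higher and 0 lower. Among them were Dusp1, Acta2, Ptgs2, Nr4a1, Sgk1, Sik1, Fosl2, Vcl, Csrp1, Mtss1l, Tigit and 6430527G18Rik. Nr4a1 and Sik1 reached an average of 10 FPKM only through the fusion columns. In PBS at 3 h and 6 h Nr4a1 stood at 8.11 and 6.25 FPKM and Sik1 at 8.69 and 8.29 FPKM. Acta2 stood at 86.2 FPKM in PBS and 131 FPKM with Omomyc at 6 h. Sgk1, a kinase gene induced by serum and glucocorticoids, stood at 93.0 and 128 FPKM at 3 h and at 50.9 and 71.7 FPKM at 6 h. Vcl stood at 131 and 170 FPKM at 6 h. Others were near PBS at 6 h: F3 read 47.8 FPKM in PBS and 49.5 FPKM with Omomyc, Thbs1 231 and 240 FPKM, and Ctgf 15.7 and 13.4 FPKM. At 6 h the smooth muscle list kept a median log2 ratio of 0.17, the YAP list was at 0.02 and the cholesterol and fatty acid list was at 0.33. FPP-1746 over the same PBS column at 6 h gave 0.26, 0.07 and 0.31 in that order.

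**Figure D5:**
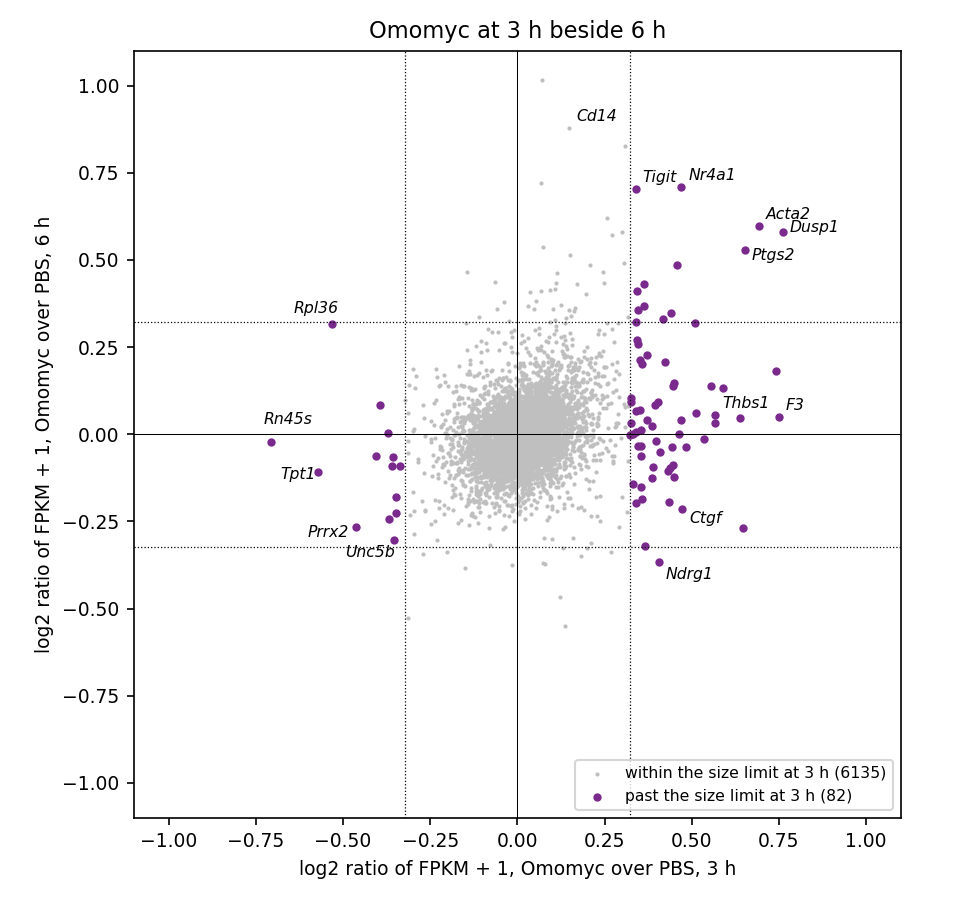
Log2 ratio of FPKM + 1, Omomyc over PBS, at 3 h (x axis) and 6 h (y axis) for the 6217 genes that averaged at least 10 FPKM. Purple points are the 82 genes past the size limit at 3 h, and dotted lines mark the size limit. The upper right corner holds the 13 genes higher at both times, the lower left corner holds none, and Ndrg1 lies at the lower right.

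FPP-1746 at 6 h, set beside Omomyc at 3 h, also shares no column with it. Of the 111 genes higher with Omomyc at 3 h, 89 were above PBS with FPP-1746 at 6 h (80.2%), beside 52.6% of all genes, and 25 were past the size limit. FPP-1746 at 6 h had 97 such genes in all (0.958%) and 122 (1.21%) at least 20% lower. Pearson's r was 0.25 over all genes and 0.37 over those of at least 10 FPKM. The 89 genes with FPP-1746 stand beside 72 with Omomyc at 6 h; both counts use the PBS column at 6 h, and their difference was not tested.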

How the data were processed

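RNA of T11 cells was measured by RNA-seq; per the labels, each submitted RNA had an integrity number of 10. The authors deposited 1 table of FPKM, averaged over the 3 samples of each of 8 groups. The tools are STAR 2.1.3, bcl2fastq 2.17.1.14, and both Cuffnorm 2.2.1 and Cufflinks 2.2.1, with build mm9, per the submitters' processing notes. Settings and use of strand were not given in the sources used here, and overlapping genes cannot be told apart. Gene positions are the table's, in mm9, and promoter sequences are in GRCm38.p6.

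Log2 ratios were computed in Python 3.11.15 with pandas 2.3.3 on FPKM + 1, a scale that understates the change of low genes. Records of small RNAs (140) were counted separately. No test was run, since each group is 1 averaged column. The ratio and the 2-fold count were tested on simulated data with large planted changes. Counts at the size limit and list medians were not tested in that way. Members and gene lists were chosen with earlier results of these data known. Named were genes past 2-fold, the 10 highest and 10 lowest ratios at 1 and at 10 FPKM (predicted genes and pseudogenes left out), up to 3 members per list past the size limit, and Myc, Max, Mxd, Mxi1 and Mnt; other names were chosen after their values were seen. Of the 10122 genes, 1727 lie in a locus shared with another gene. A few genes are not reported here. Symbols turned into dates (25) were left as they stand. By counting alone, and on the rough fragment figure given above, a 2000-base transcript at 10 FPKM has an SD of 0.064 in its log2 ratio.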

Additional observations from a re-analysis of the deposited data

Results flagged for a closer look

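Among the named genes, 3 were past the size limit in opposite directions at 3 h and 6 h. How the times differ was not tested. Ndrg1 had a log2 ratio of 0.41 at 3 h and -0.37 at 6 h, when it stood at 34.3 FPKM in PBS and 26.4 FPKM with Omomyc. Rnaset2b, a ribonuclease gene, had -0.62 at 3 h, with 3.14 FPKM in PBS and 1.69 FPKM with Omomyc, and 0.56 at 6 h, with 1.26 and 2.33 FPKM. The record 5730408K05Rik, in a shared locus, had 0.33 at 3 h and -0.34 at 6 h, at 5.05 and 6.61 FPKM and then 6.58 and 5.00 FPKM in PBS and Omomyc.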

How the results depend on the processing

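No paired analysis was possible because the table holds 1 averaged column per group; for the same reason no replicate could be left out. Over 11 alternatives the 80 named genes gave 832 ratios. Of these, 15 belonged to genes past the size limit in the main run and changed sign. Of the others, 620 moved by less than 0.116 (the SD of the ratio over genes) and 197 by more. Sign changes of genes within the limit were not counted apart, such as Myc, at -0.0349 against FPP-1746. Of 360 list medians, 352 moved by less than 0.116. Counts at 2-fold, higher and lower, were 4 and 5 with a pseudocount of 0.1, 0 lower with a pseudocount of 5, 1 and 2 with no level filter, 0 lower at 10 FPKM or with shared loci left out, and 29 and 34 with small RNA records kept; at 1.5-fold they were 13 and 9. Counts past the size limit were 189 and 197 with a pseudocount of 0.1, 54 and 11 with 5, 68 and 14 at 10 FPKM, and 133 lower with small RNA records. Past it at both times were 19 lower with a pseudocount of 0.1, 8 higher and 1 lower with 5, 13 and 0 at 10 FPKM, 33 lower with small RNA records and 4 lower without shared loci. With the mean of both PBS columns as reference, 10 genes were 2-fold higher and 368 and 478 past the size limit. That reference also gave medians of 0.17 for the MYC network, 0.28 for immediate-early, 0.0245 for BMP, -0.22 for metal-response and 0.25 for circadian clock genes, and -0.16 for Rps29. With the mean of PBS and FPP-1746 as reference, 2 genes were 2-fold lower, 20 and 44 past the size limit, 5 higher at both times, and Ctgf was at -0.0405. With FPP-1746 as reference, an alternative chosen after seeing the data, 2 genes were 2-fold lower, 26 and 43 past the size limit and 4 higher at both times. The smooth muscle, YAP and Txnip list medians were then -0.00131, 0.000501 and 0.0438. The genes past the size limit over PBS that changed sign against FPP-1746 were F3 (-0.20), Cdc42ep3 (-0.0225), Ptgs2 (-0.22), Usmg5 (0.0479), Filip1l (-0.0664), Thbs1 (-0.13), Ctgf (-0.42), Tgfb2 (-0.0522), Tagln (-0.15), Myl9 (-0.0387), Hes1 (-0.0418), Itga5 (-0.0867) and Rps10 (-0.0214). Centring and quantile normalisation changed no count by over 1.5 times. How far depth limits each ratio was not tested, since no replicate values were used.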

Other observations

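Records of small RNAs swung between 0 and high FPKM. Of 140, 29 were at least 2-fold higher and 33 at least 2-fold lower with Omomyc at 3 h, and 40 of these had a 0 in PBS or Omomyc; with FPP-1746, over the same PBS column, 31 were higher and 29 lower. Snord32a was listed at 0 in PBS and 74.5 FPKM with Omomyc at 3 h, and at 62.9 FPKM in PBS and 0 with Omomyc at 6 h. Snord99 was listed at 1692 FPKM in PBS and at 0 with Omomyc at 3 h, and at 0 in every group at 6 h. Mir5136, at 37.6 FPKM, was above 0 with Omomyc at 3 h and in no other column.

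The circadian clock list had a median log2 ratio of 0.11, with 12 of 14 above 0, beside 55.2% of all genes. FPP-1746 over the same PBS column gave it a median of 0.07. Only 1 clock gene was past the size limit, too few to read against the 1.1% of all genes. That gene was Per1, a repressor of the clock that is also induced acutely by many stimuli, at 1.37 FPKM in PBS, 2.25 FPKM with Omomyc and 2.09 FPKM with FPP-1746 at 3 h. Small nucleolar RNA host genes had a median of -0.08, with 11 of 13 below 0, beside 44.8% of all genes. FPP-1746 over the same PBS column gave that list a median of -0.10. Snhg5 read 50.1 FPKM in PBS and 40.6 FPKM with Omomyc, and Snhg3 225 and 190 FPKM.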
